A study of Mus musculus with 18 samples.

Results

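Rn7sk, Rmrp, Rpph1, Terc, Malat1 and Neat1 are 6 noncoding RNAs that act in or pass through the nucleus. They were selected on their measured shares of the counts and on how those shares differed between 3 groups of mouse mammary tumors, 18 tumors in all. The members were given by name and stand in 8 of the 57126 gene rows of the count table, because Rmrp and Terc are each annotated under a pair of identifiers. The series holds 7 MaP R172H/- tumors, 5 MaP R245W/- tumors and 6 MaP -/- tumors of female F1 mice from a BALB/c by C57BL6/J cross. MaP stands for the somatic mammary p53 model: adenoviral Cre injected into the mammary ducts removed the wild-type Trp53 sequence in ductal epithelium, leaving a single allele that codes for p53 R172H or p53 R245W, or no functional allele in MaP -/-, while stroma and immune cells kept wild-type Trp53. Every animal, MaP -/- included, received adenoviral Cre, and tumors YZ2, YZ6 and YZ10 of MaP R172H/- and JM1233, JM1564 and RM0014 of MaP R245W/- also carried Rosa26LSL-TdTomato/+. Only 4 mice stand behind the 6 MaP -/- tumors: JM663 and JM833 each gave a left tumor (T1) and a right tumor (T2). For JM779 and JM836 the labels give T1, while the published list of tumors marks the tumor of the other side. The header of the count column for JM779 carries an R, as does that for the right tumor of JM663. The header for JM836 carries no side. The labels thus conflict for JM779, and the side sequenced is in doubt for JM836. All 7 MaP R172H/- libraries were run on a HiSeq and all 11 others on a NovaSeq. The published methods also give shorter reads and separate pools for the MaP R172H/- libraries. The published list classes every MaP R245W/- and MaP -/- tumor as triple-negative and no MaP R172H/- tumor as such. A difference that sets MaP R172H/- apart from the other tumors cannot be told apart from the sequencing platform, read length, pool or subtype.

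7SK RNA, the product of Rn7sk, is transcribed by RNA polymerase III and holds the kinase P-TEFb in an inactive particle with Hexim proteins, which keeps RNA polymerase II paused near promoters. Rmrp and Rpph1 are the RNA parts of RNase MRP and RNase P, which process ribosomal RNA and the 5′ ends of tRNA precursors, and Terc is the template RNA of telomerase. Malat1 and Neat1 are long RNA polymerase II transcripts with neighboring genes: Malat1 gathers at nuclear speckles, and Neat1 builds paraspeckles. Only some of these RNAs carry a poly(A) tail, and the sources describe the libraries in different words, as stranded mRNA libraries in the labels and as total RNA libraries depleted of ribosomal RNA in the methods.

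All 6 genes lie on the minus strand of GRCm39. Rn7sk, at chr9:78082585-78082915, is a single exon of 331 bases that no other annotated gene on its strand overlaps. The start of 7SK RNA is shown because it is the part that Hexim proteins are known to bind, with the letters GATC in capitals:
Rn7sk, the first 120 bases: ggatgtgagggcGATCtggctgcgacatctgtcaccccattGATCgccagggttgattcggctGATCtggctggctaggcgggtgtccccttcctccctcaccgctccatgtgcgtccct
The run holds GATC 3 times, which only 335 of 73999 annotated genes (0.453%) do in the first 120 bases of their longest transcript on the transcript strand. The window and the count of 3 were set on Rn7sk, so that it meets them by construction. The letters are a description of this window and not a test of binding.

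Rmrp and Terc are shown because each is written into the annotation more than once over nearly the same bases. For Rmrp the capitals mark the bases of the lncRNA entry, chr4:43492783-43493063, that lie outside the ribozyme entry, chr4:43492788-43493058. For Terc they mark the start of the misc_RNA entry, chr3:96321753-96322175, which the lncRNA entry, chr3:96321753-96322149, lacks:
Rmrp, the whole lncRNA entry of 281 bases: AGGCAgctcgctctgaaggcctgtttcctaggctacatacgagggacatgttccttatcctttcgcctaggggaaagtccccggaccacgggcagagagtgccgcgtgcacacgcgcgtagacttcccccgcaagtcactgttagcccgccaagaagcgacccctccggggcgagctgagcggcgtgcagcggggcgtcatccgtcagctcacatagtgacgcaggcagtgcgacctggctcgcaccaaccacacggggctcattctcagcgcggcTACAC
Terc, the first 100 bases of the misc_RNA entry: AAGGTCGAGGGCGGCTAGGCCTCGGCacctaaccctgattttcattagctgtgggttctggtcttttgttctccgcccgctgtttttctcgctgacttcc
Rpph1, a ribozyme gene of 319 bases at chr14:51044906-51045224, shares 84.01% of its exon bases with exons of Ccnb1ip1 on the same strand. It also has a close copy elsewhere, Rprl3, at chr8:3853123-3853358. The pair is shown with the bases that differ, or that face a gap in the alignment, in capitals:
Rpph1, aligned part, chr14:51044968-51045224: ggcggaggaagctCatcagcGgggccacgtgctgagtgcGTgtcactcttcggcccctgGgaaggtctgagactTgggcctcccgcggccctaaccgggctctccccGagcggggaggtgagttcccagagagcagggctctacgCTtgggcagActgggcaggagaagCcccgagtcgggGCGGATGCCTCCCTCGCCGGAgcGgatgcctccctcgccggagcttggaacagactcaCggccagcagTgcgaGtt
Rprl3, aligned part: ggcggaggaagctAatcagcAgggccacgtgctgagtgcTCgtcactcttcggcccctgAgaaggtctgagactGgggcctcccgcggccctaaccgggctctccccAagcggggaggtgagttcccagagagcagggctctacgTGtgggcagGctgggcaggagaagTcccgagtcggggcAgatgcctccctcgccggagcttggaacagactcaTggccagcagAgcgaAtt
The alignment ran over 257 columns with 85.992% identity, 15 mismatches and 21 gap columns.

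Malat1, at chr19:5845717-5853602 and 7886 bases long, and Neat1, at chr19:5874736-5897132 and 22397 bases long, are neighbors that end in the same way. The last 100 bases up to and including the A-rich tract are shown for each. The capitals mark TTTTGCTTTT, the single run of 10 bases in the last 400 bases of both genes whose reverse complement follows within 100 bases, and that complement, AAAAGCAAAA:
Malat1, chr19:5846010-5846109: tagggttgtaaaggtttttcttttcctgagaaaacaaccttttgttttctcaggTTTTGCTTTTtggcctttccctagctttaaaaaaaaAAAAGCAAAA
Neat1, chr19:5874736-5874835: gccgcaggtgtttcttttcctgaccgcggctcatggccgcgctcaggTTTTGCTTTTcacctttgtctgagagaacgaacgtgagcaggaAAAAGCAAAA
The runs are known as the parts of a triple helix that protects these ends, which are cut by RNase P and not polyadenylated. The motifs were 26 bases apart in Malat1 and 33 in Neat1, and Malat1 and Neat1 were the only 2 of 32874 lncRNA genes (0.00608%) whose longest transcript holds TTTTGCTTTT followed by AAAAGCAAAA within 100 bases on the transcript strand. The letters were found in these sequences and then searched for elsewhere, so that the members hold them by construction. The tract ends the annotated gene in Neat1 and stands 293 bases before the annotated end in Malat1.

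Counts totaled 23113578 to 37365062 per tumor. Levels are given as the percent of a tumor's total counts, and as counts per 1000000 counts (CPM) with library sizes scaled by the trimmed mean of M values (TMM). Because the members were chosen by their levels, their levels and all differences between groups are given as values with no test, also where both groups shared the platform. A p-value in these data measures the spread between tumors and not between mice. The fits counted the 6 MaP -/- tumors of 4 mice as independent. Trp53 itself had 10.82 to 50.23 CPM in MaP R172H/-, 9.075 to 58.89 CPM in MaP R245W/- and 9.414 to 21.60 CPM in MaP -/-, ranges that overlapped and that include stroma with wild-type Trp53. The 6 epithelial markers Epcam, Krt8, Krt18, Krt5, Krt14 and Cdh1 summed to 365.7 to 7489, 471.1 to 5573 and 149.0 to 2529 CPM in the same order of groups, with Krt5 at 0 in tumor JM1233 and no other marker at 0 in any tumor, and none was called in any comparison. Of 5 skeletal muscle markers, Acta1, Mylpf, Tnnt3 and Myh4 were called lower in MaP R172H/- than in MaP R245W/-, where the list summed to 1.797 to 12.80 and 2.548 to 841.8 CPM, and the part of muscle in the values for that comparison was not tested.

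Rn7sk, Malat1 and Neat1 together took nearly all of the counts of the 6 members. Their sum made up 2.689% to 4.004% of the counts in 6 of the 7 MaP R172H/- tumors and 7.975% in tumor YZ7. It was 1.709% to 2.298% in MaP R245W/- tumors and 1.475% to 2.860% in MaP -/- tumors. Per kilobase of the longest annotated transcript, median levels ran in the order Rn7sk, Malat1, Neat1 in every group. They were 55330, 1520 and 67.8 CPM per kilobase in MaP R172H/-, 27280, 1259 and 35.0 in MaP R245W/-, and 14790, 1414 and 64.4 in MaP -/-.

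**Figure D1:**
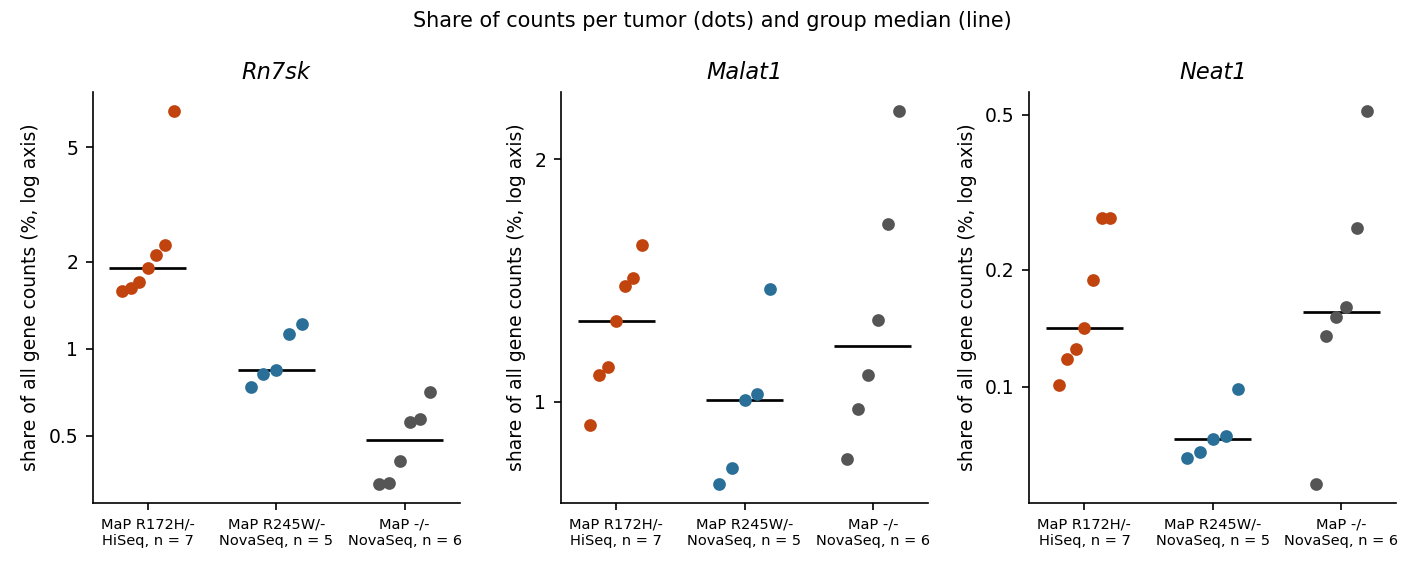
Percent of each tumor's total counts (y axis, log scale) taken by Rn7sk, Malat1 and Neat1 in the 7 MaP R172H/-, the 5 MaP R245W/- and the 6 MaP -/- tumors. Points are tumors and lines are group medians; Rn7sk falls into separate ranges by group, with YZ7 at 6.683%, while Malat1 overlaps between all groups.

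Rn7sk was the member that separated the groups. It took 1.583% (YZ10), 1.628% (YZ3), 1.700% (YZ4), 1.911% (YZ6), 2.109% (YZ2), 2.295% (YZ11) and 6.683% (YZ7) of the counts in MaP R172H/- tumors. In MaP R245W/- tumors it took 0.7399% (JM1126), 0.8208% (JM1564), 0.8442% (RM0014), 1.126% (JM1233) and 1.218% (JM1133). In MaP -/- tumors it took 0.3402% (JM833-T2), 0.3437% (JM833-T1), 0.4092% (JM663-T2), 0.5568% (JM836-T1), 0.5702% (JM779-T1) and 0.7071% (JM663-T1). The 3 ranges did not overlap, and they did not overlap in TMM-scaled CPM either. By count, which is not corrected for length, Rn7sk ranked 1 or 2 among all genes in each MaP R172H/- tumor, between 1 and 8 in MaP R245W/- and between 5 and 11 in MaP -/-.

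On the TMM scale the medians were 18310 CPM in MaP R172H/-, 9031 CPM in MaP R245W/- and 4894 CPM in MaP -/-. The edgeR log2 fold change of Rn7sk was 2.47 ± 0.44 (SE) for MaP R172H/- against MaP -/- and 1.34 ± 0.40 for MaP R172H/- against MaP R245W/-. Tumor YZ7 alone had 1608212 Rn7sk counts, and without it these values were 1.99 ± 0.29 and 0.85 ± 0.27. YZ7 also stood apart in epithelial markers, which summed to 365.7 CPM there and to 2185 to 7489 CPM in the other 6 MaP R172H/- tumors, and their part in its Rn7sk level was not tested. Of 20954 genes tested between MaP R172H/- and MaP -/-, 446 (2.13%) had every MaP R172H/- tumor above every MaP -/- tumor, and of 22481 genes in the 3-group fit 400 (1.78%) had every MaP R172H/- tumor above every MaP R245W/- tumor. Both of these differences coincide with the change of platform. The same 13 MaP R172H/- and MaP -/- tumors also differed in markers of other cells. The summed level of 7 immune markers was 193.8 to 276.5 CPM in MaP R172H/- and 327.8 to 866.4 CPM in MaP -/-, and Ptprc, Adgre1 and S100a8 were called lower. Of 3 endothelial markers, which summed to 128.2 to 226.7 and 192.7 to 348.4 CPM, Pecam1 was called lower (55.30 to 76.90 against 79.91 to 169.3 CPM). Of 6 fibroblast markers, which summed to 2390 to 7083 and 3650 to 6696 CPM, Pdgfra was called lower, and no endothelial or fibroblast marker was at 0. The part of these markers in the Rn7sk difference was not tested, and in bulk tissue fewer cells of a type and less RNA per cell cannot be told apart.

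MaP R245W/- and MaP -/- libraries shared the platform, and the comparison of these groups gave a difference in the same direction. The log2 fold change of Rn7sk was 1.11 ± 0.31 over 5 against 6 tumors. Over all 21452 genes, edgeR's quasi-likelihood test with Benjamini-Hochberg adjustment called 0 genes (0%) at the threshold of 0.05 in this comparison, with 2528 genes at an unadjusted p under 0.05 and 427 genes called by the DESeq2 Wald test. Groups that did not overlap with MaP R245W/- above were found for 102 of the 21452 genes (0.475%). Leaving out each tumor in turn gave log2 fold changes of Rn7sk of 0.98 to 1.25, whose sign was fixed because these groups did not overlap. The summed immune markers overlapped between these groups, at 165.6 to 766.9 CPM in MaP R245W/- and 327.8 to 866.4 CPM in MaP -/-.

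The share of counts from other classes of RNA that mostly lack a poly(A) tail was measured beside Rn7sk. The histone genes were 73 core and linker genes picked by symbol, whose mRNAs mostly, but not all, end in a stem-loop. They took 0.2041% to 0.4326% of the counts in MaP R172H/-, 0.1147% to 0.2751% in MaP R245W/- and 0.069% to 0.2089% in MaP -/-. Misc_RNA genes without Rn7sk took 0.05927% to 0.1295%, 0.03997% to 0.08122% and 0.02322% to 0.04179%. Their medians fell in the same group order as that of Rn7sk, but neighboring groups overlapped in these shares. Small nuclear RNA genes did not follow this order, with the highest share, 0.161% to 0.8045%, in MaP R245W/-. The part of these shares in the Rn7sk difference was not tested.

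Annotated copies of 7SK were counted beside the gene itself. The annotation holds 39 genes elsewhere in the genome that align to Rn7sk over at least 100 bases with at least 80% identity, and 11 of them had no count in any tumor. Some reads can fit Rn7sk and a copy equally well, and gene counts do not show whether such reads were shared out or dropped. The counts of single copies are therefore uncertain. Summed over the copies, counts equaled 0.164% to 0.372% of the Rn7sk count in MaP R172H/- tumors (median 0.240%), 0.857% to 1.32% in MaP R245W/- (median 0.999%) and 1.17% to 1.66% in MaP -/- (median 1.26%). The MaP R172H/- tumors lay below all others in this percent, and the other 2 groups overlapped. The percent is taken of the Rn7sk count, for which the member was chosen, and is lower wherever Rn7sk is higher for the same copy counts. In CPM the copies summed to 37.71 to 115.9, 72.92 to 172.1 and 35.04 to 85.68 in the same order of groups, so that in CPM the MaP R172H/- tumors overlapped both other groups. The most abundant copy, Gm54754, had medians of 20.4, 56.5 and 32.6 CPM, and Gm55604 had medians of 9.41, 18.8 and 10.8 CPM. Gm55278 had a median of 0 in every group and reached 14.96 CPM in a MaP R172H/- tumor.

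**Figure D2:**
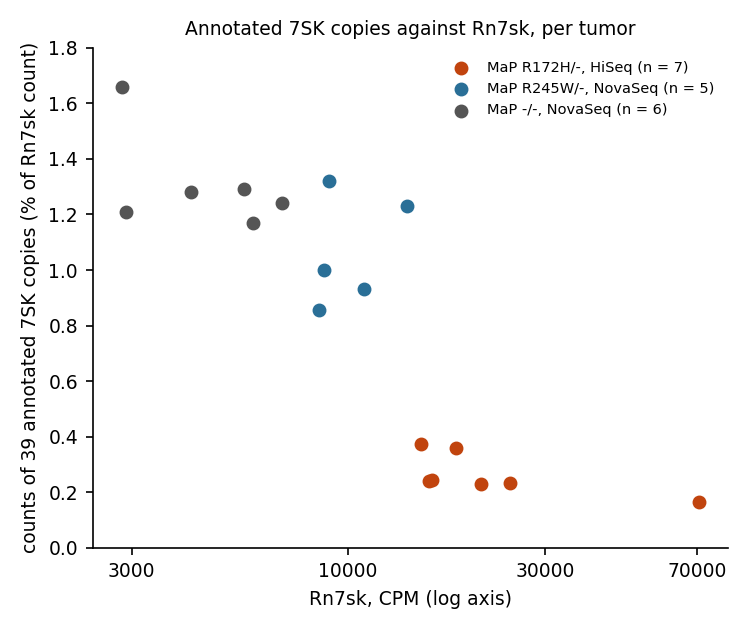
Summed counts of 39 annotated 7SK copies as a percent of the Rn7sk count (y axis) for each tumor, by group. The 7 MaP R172H/- tumors lie at 0.164% to 0.372% and the 11 other tumors at 0.857% to 1.66%, while the summed CPM of the copies overlap between MaP R172H/- and both other groups.

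Malat1 did not separate the groups. It took 0.9356% (YZ3), 1.078% (YZ6), 1.105% (YZ7), 1.259% (YZ10), 1.393% (YZ2), 1.426% (YZ4) and 1.568% (YZ11) of the counts in MaP R172H/-. The shares were 0.7898% (JM1564), 0.8267% (JM1133), 1.006% (JM1126), 1.022% (JM1233) and 1.380% (RM0014) in MaP R245W/-. In MaP -/- they were 0.8487% (JM779-T1), 0.9800% (JM663-T1), 1.080% (JM833-T2), 1.264% (JM836-T1), 1.664% (JM833-T1) and 2.300% (JM663-T2). Every group overlapped both others, and JM663-T2 stood highest of the 18. The log2 fold change was -0.04 ± 0.28 for MaP R172H/- against MaP -/- (0.22 ± 0.24 without JM663-T2) and 0.20 ± 0.27 for MaP R172H/- against MaP R245W/-. Between the groups of the same platform it was -0.26 ± 0.33, and -0.01 ± 0.30 without JM663-T2.

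Neat1 was lowest in MaP R245W/- and varied most in MaP -/-. Its share was 0.0655% (JM1133), 0.06785% (JM1126), 0.07337% (RM0014), 0.0746% (JM1233) and 0.09875% (JM1564) in MaP R245W/-. It ranged from 0.1011% (YZ6) to 0.2714% (YZ10) with a median of 0.1415% in MaP R172H/-, and from 0.05626% (JM779-T1) to 0.5117% (JM833-T1) with a median of 0.1557% in MaP -/-. All MaP R172H/- tumors lay above all MaP R245W/- tumors in share, but in TMM-scaled CPM the groups overlapped, with YZ6 at 969.5 and JM1564 at 1023 CPM. In CPM, 5 of the 6 MaP -/- tumors lay above every MaP R245W/- tumor and JM779-T1, at 582.6 CPM, lay below all of them.

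The log2 fold change of Neat1 for MaP R245W/- against MaP -/- was -1.26 ± 0.43, and -0.86 ± 0.34 without JM833-T1. It was 1.08 ± 0.40 for MaP R172H/- against MaP R245W/- and -0.15 ± 0.41 for MaP R172H/- against MaP -/- (0.24 ± 0.36 without JM833-T1). Per kilobase of the longest annotated transcript (7886 bases for Malat1 and 22397 for Neat1), Malat1 stood 9.23 to 53.4 times above Neat1 in a tumor. The median ratio was 21.2 in MaP R172H/-, 38.9 in MaP R245W/- and 19.9 in MaP -/-. Counts per gene do not separate the short and long Neat1 isoforms, so these ratios hold only for the full length.

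Left and right tumors of the same mouse differed in these RNAs, and not in the same member in both mice. In mouse JM663, Malat1 was 2.45 times higher in T2 than in T1 and Rn7sk 1.65 times higher in T1, while Neat1 differed 1.17 times. In mouse JM833, Neat1 was 3.24 times and Malat1 1.56 times higher in T1, while Rn7sk differed 1.02 times. These are ratios of TMM-scaled CPM between single tumors. Over all 6 MaP -/- tumors the highest level was 2.44 times the lowest for Rn7sk, 2.68 times for Malat1 and 7.42 times for Neat1.

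**Figure D3:**
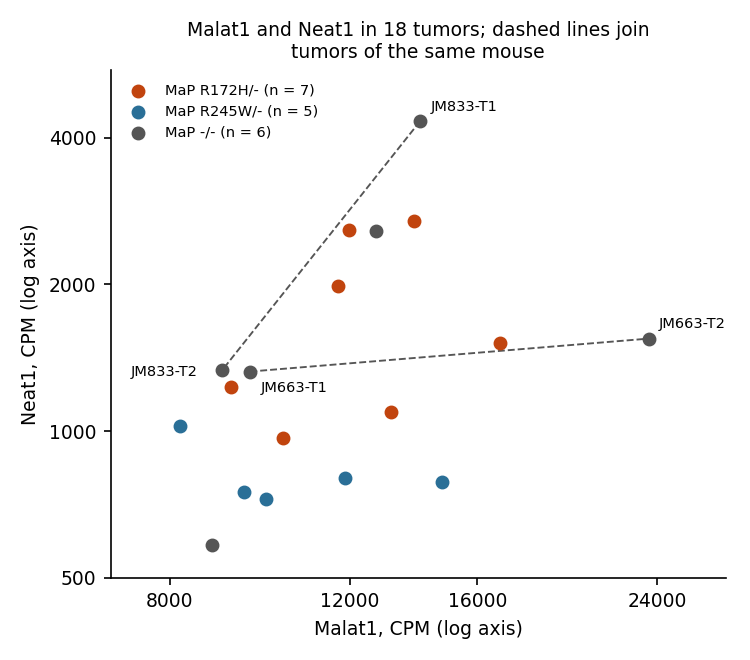
Malat1 (x axis) against Neat1 (y axis), both in TMM-scaled CPM on log axes, for 18 tumors colored by group. Dashed lines join left and right tumors of the same mouse: JM663 differs mostly in Malat1 (9589 and 23530 CPM) and JM833 mostly in Neat1 (4323 and 1335 CPM).

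Over the 18 tumors the log2 levels of Malat1 and Neat1 had a Pearson r of 0.407 and a Spearman rho of 0.488. Rn7sk had an r of -0.016 with Malat1 and -0.032 with Neat1. The tumors share groups and platforms, so these are descriptions. Among 10716 genes with a mean of at least 10 CPM, the levels most like Rn7sk over the 18 tumors were those of Znhit1, a subunit of a chromatin remodeling complex (r = 0.934), Rny3, a Y RNA also made by RNA polymerase III (r = 0.925), and Atp5if1, an inhibitor of the mitochondrial ATP synthase (r = 0.919). Inside groups r was 0.539, 0.800 and 0.893 for Rny3 in MaP R172H/-, MaP R245W/- and MaP -/-. In the same order it was 0.987, 0.093 and 0.633 for Znhit1 and 0.843, -0.354 and 0.710 for Atp5if1. The values in MaP R172H/- rest on 7 tumors, with YZ7 far above the others in Rn7sk, and were not computed without it. The genes most like Malat1 were Grina (0.749), Gpr155 (0.722) and the keratin gene Krt6a (0.716). For Neat1 they were the transcription factor gene Atf7 (0.773), Zcchc7 (0.750) and Mfsd4a (0.743). These correlations were weaker than those for Rn7sk, whose groups lay apart.

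Rmrp, Rpph1 and Terc were at or near 0 in all 18 tumors. Rmrp had 1 count in all, in YZ4, Rpph1 had 4 counts in all with at most 2 in a tumor, and both Terc entries had 0. A count of 0 allows a level of up to 0.0803 to 0.130 CPM, depending on the tumor's total, for counting error only. These 3 RNAs share the property shown with their sequences: each is covered, in full or for most of its bases, by another annotated gene on its own strand, so that a read can fit more than 1 gene. The opposite strand is annotated too, with Ccdc107 over Rmrp and Parp2 over Rpph1. Ccnb1ip1, which covers most of Rpph1, had 0 to 1.42 CPM except 11.4 CPM (259 counts) in YZ7 and 5.02 CPM (149 counts) in JM833-T2. A count near 0 for these genes says only that no count was assigned, not that the RNA was absent.

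Genes with nearly complete cover were more often near 0 across the count table. This class takes in both Rmrp entries and the lncRNA entry of Terc, but not Rpph1 (84.01% covered) or the misc_RNA entry of Terc (93.85%). Of 1555 genes whose exons are at least 95% covered by another gene on the same strand, 1312 (84.37%) had at most 3 counts in every tumor, against 20393 of 51275 genes (39.77%) with no exon base covered. Among small noncoding RNA genes the shares were 293 of 338 (86.69%) and 2163 of 3107 (69.62%). Among protein-coding genes they were 178 of 210 (84.76%) and 3344 of 19733 (16.95%). The small RNA genes annotated inside Malat1 (Gm55521) and Neat1 (Gm55523, Gm55524 and Gm55525) also had 0 counts, while Malat1 and Neat1 themselves share only 1.091% and 1.715% of their exon bases. The part of the overlap in these counts was not tested.

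**Figure D4:**
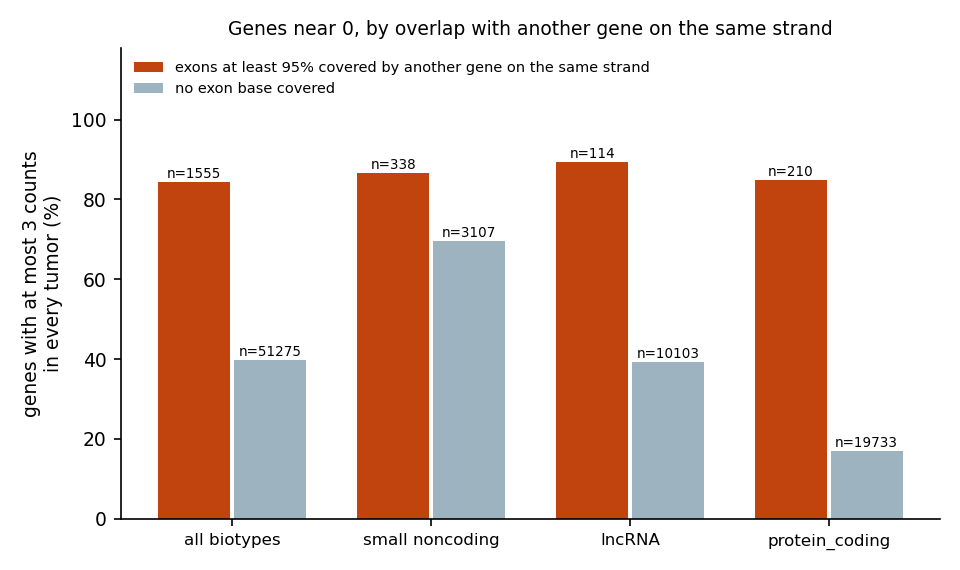
Percent of genes with at most 3 counts in every tumor (y axis), for genes whose exons are at least 95% covered by another gene on the same strand and for genes with no covered exon base, by biotype. Numbers over the bars are genes; covered genes are at 84.37% against 39.77% over all biotypes.

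Rprl3, the copy shown beside Rpph1 and named here for that reason after its values had been seen, did receive counts, and they varied more within each group than those of any abundant member. It had 40.06 to 225.3 CPM in MaP R172H/-, with YZ7 highest. In MaP R245W/- it had 2 counts in JM1233, 17 in RM0014, and 47.77, 90.01 and 161.8 CPM in JM1564, JM1126 and JM1133. In MaP -/- it had 7 counts in JM836-T1 and 5.974 to 36.84 CPM in the other 5 tumors. Because Rprl3 and Rpph1 can share reads, these counts cannot be assigned to Rprl3 alone. Rmrp had no annotated copy by the same rule, and the 2 copies of Terc had at most 0.1493 CPM in a tumor.

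The other small noncoding RNAs, mostly short RNAs of RNA polymerase III and spliceosomal RNAs, were examined as a list of 33 genes, of which 25 were in the table, 8 of them with at most 3 counts in every tumor, and 13 to 16 passed the filter on low counts. Between MaP R172H/- and MaP -/-, where 3.67% of all 20954 genes tested were called higher and 4.73% lower, 6 of the 13 tested were higher and 1 was lower, with a median log2 fold change of 0.978 against 0.002671 over all genes. Rny3, a Y RNA bound by Ro60, was 143.2 to 471.6 CPM in MaP R172H/- and 16.97 to 70.77 CPM in MaP -/-, a log2 fold change of 2.55 ± 0.36 with an adjusted p of 0.00106 in edgeR's quasi-likelihood test. Vaultrc5, the RNA of the vault particle, was 162.1 to 344.3 CPM and 12.69 to 72.36 CPM, a log2 fold change of 2.56 ± 0.38 (adjusted p = 0.00152). Rnu12 of the minor spliceosome, Rny1 and Scarna2 rose by 2.23, 1.91 and 1.54 on the log2 scale. These groups did not overlap for Rny3, Vaultrc5, Rnu12, Rny1, Scarna2 or Rprl3. Over all genes, 446 of 20954 (2.13%) had every MaP R172H/- tumor above every MaP -/- tumor. Rprl3 was called higher as well, at 2.62 ± 0.74 (adjusted p = 0.0439), but 10 of the 13 fits that left out a tumor lost this call. Of the 13 genes tested, 8 had a log2 fold change above 0. Among the called genes the only lower one was Rn7s1, a 7SL RNA of the signal recognition particle. It had 0.5468 to 1.294 CPM in MaP R172H/- against 1.632 to 7.505 CPM in MaP -/- (-2.32 ± 0.33, adjusted p = 0.00118). Like Rn7sk, these genes were compared across the change of platform.

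Within the shared platform the list lay above 0 without any call. All 15 genes tested had a log2 fold change above 0 for MaP R245W/- against MaP -/-, where 51.8% of all genes did, and the median was 1.154 against 0.01958 over all genes. Rnu1a1 and Rnu1b2 did not pass the filter between MaP R172H/- and MaP -/-. Their medians were 0.8331 and 1.437 CPM in MaP R245W/- and 0.3515 and 0.3886 CPM in MaP -/-, so the filter favored their sign. The 15 genes are not independent of each other, so their count is a description. With library totals in place of TMM scaling 14 of the 15 lay above 0. Rny3 had 84.02 to 159.0 CPM in MaP R245W/-, above every MaP -/- tumor, and a log2 fold change of 1.24 ± 0.32 with an adjusted p of 0.360 in edgeR's quasi-likelihood test. Tumor JM1133 was the highest of its group for 12 of the 17 small RNAs with more than 3 counts, and the median was 0.87 without it. Tumor YZ7, which had the highest Rn7sk level, was the highest of its group for 5 of the 17, among them Rny1 (496.5 CPM), Rny3 (471.6 CPM) and Rprl3.

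**Figure D5:**
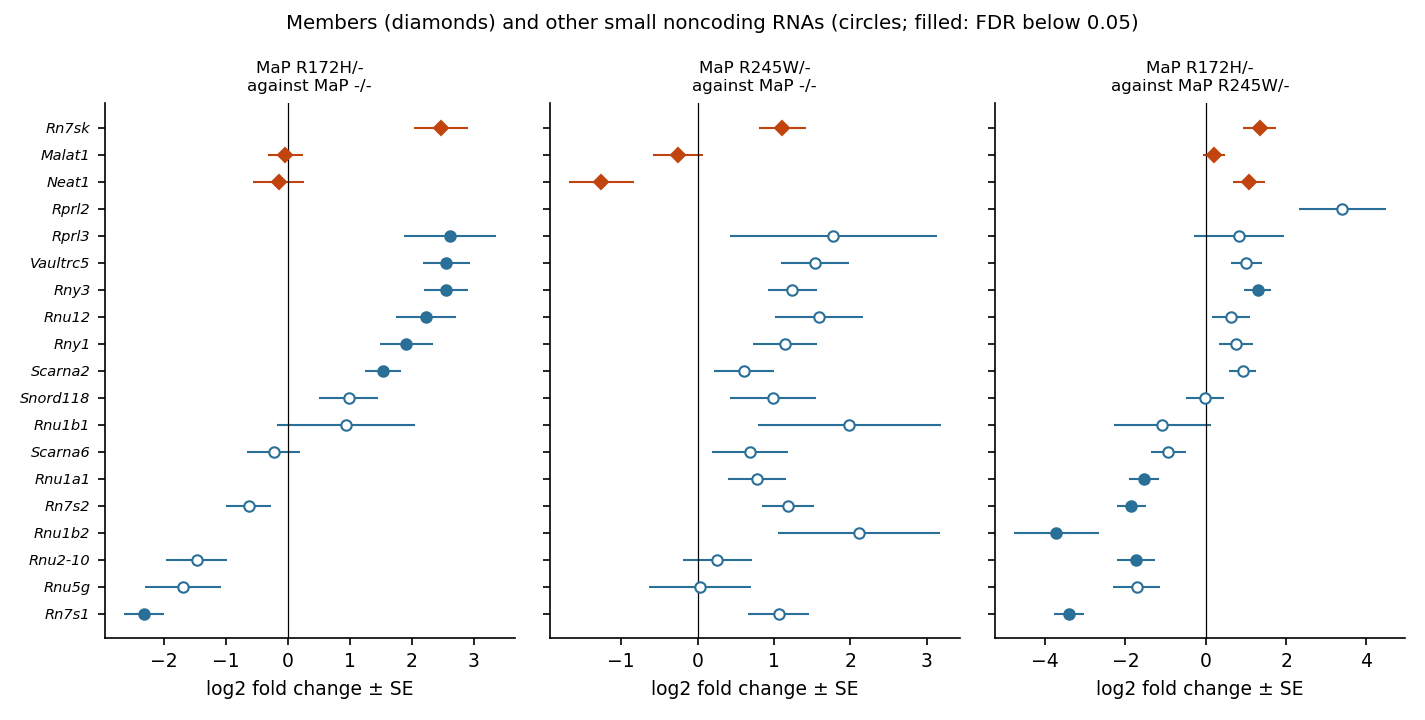
Log2 fold change with SE (x axis) of Rn7sk, Malat1 and Neat1 (diamonds) and other small noncoding RNAs (circles), 1 panel per comparison. Filled circles have an adjusted p below 0.05 in edgeR's quasi-likelihood test. For MaP R172H/- against MaP -/-, MaP R245W/- against MaP -/- and MaP R172H/- against MaP R245W/-, Rny3 lies at 2.55, 1.24 and 1.29. In the same order Rn7s1 lies at -2.32, 1.06 and -3.4.

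Between MaP R172H/- and MaP R245W/-, where 2.91% of 22481 genes were called higher and 6.49% lower, 1 of the 16 small RNAs tested was higher and 5 were lower, and the median was -0.474 against 0.002815 over all genes. Rny3 was the higher one (1.29 ± 0.34, adjusted p = 0.0241 in edgeR's quasi-likelihood test), and fits without JM1233, JM1564 or JM1126 lost the call. The lower ones were the 7SL RNAs Rn7s1 (-3.40 ± 0.37, adjusted p = 1.77e-05) and Rn7s2 (-1.85 ± 0.37, adjusted p = 0.00437) and the spliceosomal RNAs Rnu1a1, Rnu1b2 and Rnu2-10. The calls of Rnu1b2 and Rnu2-10 were each lost in 7 of 12 fits with a tumor left out. Rn7s1, Rnu1a1, Rnu1b2 and Rnu2-10 were near the limit of detection in MaP R172H/-, with medians of 0.8269, 0.2469, 0.09014 and 0.2977 CPM. 7SL and spliceosomal RNAs come from families of near-identical genes, and the counts of a single copy are uncertain.

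The protein partners of the 6 RNAs were examined in lists of 7 to 14 genes, with 0 to 2 genes called in each direction per comparison. In lists this short such counts are not read as a result about the list. Over all genes, 3.67% were called higher and 4.73% lower for MaP R172H/- against MaP -/-. For MaP R172H/- against MaP R245W/- these shares were 2.91% and 6.49%. Of 7 genes of the 7SK particle and P-TEFb, 1 was called higher in MaP R172H/- than in MaP -/-: Hexim1, the inhibitor that 7SK RNA bridges to P-TEFb, at 43.63 to 99.53 CPM against 24.13 to 50.90 CPM (log2 fold change 0.80 ± 0.22, adjusted p = 0.0372 in edgeR's quasi-likelihood test). That call was lost in 10 of 13 fits with a tumor left out. The list's median was 0.074, 0.278 and 0.065 for MaP R172H/- against MaP -/-, MaP R245W/- against MaP -/- and MaP R172H/- against MaP R245W/-, and no member of the list was called in the other comparisons, where Hexim2 had 0.87 ± 0.30 (adjusted p = 0.360) for MaP R245W/- against MaP -/- and Hexim1 0.49 ± 0.21 (adjusted p = 0.139) for MaP R172H/- against MaP R245W/-.

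Factors that transcribe 7SK and the other RNA polymerase III genes of its promoter type were called in both directions. Of 12 such factors, Zfp143, an activator of these promoters, was higher in MaP R172H/- than in MaP -/- (0.47 ± 0.12, adjusted p = 0.0312 in edgeR's quasi-likelihood test), a call lost in 6 of 13 fits without a tumor. Against MaP R245W/-, Snapc3, a subunit of the complex that binds the proximal element, was higher (0.58 ± 0.16, adjusted p = 0.0291) and Maf1, a repressor of RNA polymerase III, was lower (-0.62 ± 0.15, adjusted p = 0.0167). Of 13 RNA polymerase III subunits, Polr1d, which RNA polymerase I shares, was lower in MaP R172H/- against MaP R245W/- (-0.72 ± 0.15, adjusted p = 0.00492) and against MaP -/- (-0.48 ± 0.14, adjusted p = 0.0475, lost in 11 of 13 fits), and Polr3k was lower against MaP R245W/- (-0.60 ± 0.18, adjusted p = 0.0456, lost in 9 of 12 fits). No gene of either list was called between MaP R245W/- and MaP -/-. Maf1 had the lowest p of the factors there, at 0.56 ± 0.16 (adjusted p = 0.360), and Polr1c of the subunits, at 0.33 ± 0.19 (adjusted p = 0.509). In the same order of comparisons the medians were 0.12, -0.005 and 0.131 for the factors and -0.046, 0.208 and -0.054 for the subunits.

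Genes for proteins of paraspeckles and nuclear speckles were called in both directions between MaP R172H/- and MaP R245W/-. There 2 paraspeckle genes were higher and 2 lower, and 2 nuclear speckle genes were higher and 1 lower. Over all genes 2.91% were called higher and 6.49% lower in that comparison. Of 14 paraspeckle genes, Rbm14 (0.64 ± 0.12, adjusted p = 0.00481 in edgeR's quasi-likelihood test) and Dazap1 (0.95 ± 0.18, adjusted p = 0.00635) were higher in MaP R172H/- than in MaP -/-, and both calls held in all 13 fits with a tumor left out. Against MaP R245W/-, Hnrnpk, which favors the long Neat1 isoform, was lower (-0.96 ± 0.16, adjusted p = 0.000825), as was Nudt21, a cleavage factor that favors the short isoform (-0.92 ± 0.23, adjusted p = 0.0169), while Dazap1 and Rbm14 were higher, calls that were lost in 7 and 11 of 12 fits with a tumor left out. Counts per gene do not separate the Neat1 isoforms. Of 14 nuclear speckle and SR protein genes, the splicing factor Srsf3 was lower in MaP R172H/- against MaP -/- (-0.64 ± 0.14, adjusted p = 0.0143) and against MaP R245W/- (-0.82 ± 0.14, adjusted p = 0.00105), and Srrm1 and Acin1 were higher against MaP R245W/-, calls lost in 3 and 10 of 12 fits. Neither list had a call between MaP R245W/- and MaP -/-. The median log2 fold changes of these lists lay between -0.009 and 0.212 over the 3 comparisons.

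Partners of the RNAs without counts could be measured. Of 11 protein genes of RNase P and RNase MRP, 10 were tested, and Rpp21 was higher in MaP R172H/- than in MaP -/-, at 9.296 to 16.30 CPM against 6.326 to 8.416 CPM (0.78 ± 0.17, adjusted p = 0.0130 in edgeR's quasi-likelihood test). Rpp21 had a log2 fold change of 0.65 ± 0.19 for MaP R245W/- against MaP -/- that did not pass the test (adjusted p = 0.360). Of 9 telomerase particle genes, Naf1, an assembly factor of H/ACA RNAs such as Terc, was called lower for MaP R172H/- against MaP -/- (-0.89 ± 0.22, adjusted p = 0.0271), and fits without YZ6, JM836-T1 or JM663-T2 lost the call. The medians were 0.072, 0.335 and -0.279 for RNase P and RNase MRP and -0.041, 0.128 and -0.189 for telomerase, and no gene of either list was called in the other comparisons.

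Other long noncoding RNAs and the genes beside the members were listed for comparison with Malat1 and Neat1. Of 22 other long noncoding RNAs, Pvt1 was called lower for MaP R172H/- against MaP -/- (-0.78 ± 0.20, adjusted p = 0.0312 in edgeR's quasi-likelihood test, lost in 6 of 13 fits) and Snhg1 for MaP R172H/- against MaP R245W/- (-1.11 ± 0.28, adjusted p = 0.0188, lost without RM0014). Without Malat1 and Neat1, long noncoding RNA genes took 1.087% to 1.239% of the counts in MaP R172H/-, 0.8093% to 1.061% in MaP R245W/- and 1.150% to 1.605% in MaP -/-. Of 13 genomic neighbors of the 6 members, none was called by edgeR's quasi-likelihood test in any comparison, with 4, 2 and 5 genes at an unadjusted p under 0.05. Xist, the RNA that coats the inactive X, had the lowest p of the long noncoding RNAs for MaP R245W/- against MaP -/-, at -1.43 ± 0.23 (adjusted p = 0.155), with 364.2 to 662.0 CPM in MaP R245W/- and 951.0 to 1696 CPM in MaP -/-. The medians were -0.167, -0.069 and -0.131 for the long noncoding RNAs and 0.166, 0.155 and -0.077 for the neighbors.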

How the data were processed

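Bulk RNA from 18 mammary tumors was sequenced as paired-end stranded libraries. The authors aligned reads to GRCm39 (mm39) with STAR 2.7.10b, after FastQC 0.11.9, and deposited 1 table of gene counts from RSEM 1.3.3 on a GENCODE annotation, as whole numbers per gene with no normalization. Levels, shares and fits were computed here with R 4.3.3, edgeR 4.0.16 and pandas 2.3.3. Each comparison used edgeR's quasi-likelihood test (filterByExpr, TMM, Benjamini-Hochberg threshold 0.05), tested on simulated data first. The comparisons with MaP -/- used the 2 groups alone and the comparison of both mutants all 18 tumors. DESeq2 1.42.0, other scalings, filters and thresholds and each tumor left out were alternatives. Sequences and overlaps came from GENCODE M39 on GRCm39, which matched 56620 of 57126 identifiers. The members and gene lists were chosen with earlier results of these data known. Per list and comparison, the text names the called genes with the lowest adjusted p (at most 3), or, with no call, the gene with the lowest p, except for a few genes not reported here. Genes named by other criteria were chosen after their values were seen. Labels do not say whether tumors of a group were processed together.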

Additional observations from a re-analysis of the deposited data

Results flagged for a closer look

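Of the 9 sets of values examined (3 abundant members in 3 groups), 2 held a tumor farther from the rest than Dixon's 95% criterion allows, a criterion that chance meets in about 1 in 20 groups. In MaP R172H/-, Rn7sk took 6.683% of the counts of tumor YZ7, against 2.295% in the next highest tumor, a gap of 0.860 of the whole range where 0.568 is the critical value for 7 tumors. YZ7 also had the lowest epithelial markers of its group, with Epcam at 24.52 CPM against 517.3 to 1176 CPM and Krt8 at 18.02 CPM against 440.0 to 2570 CPM in the other 6 tumors. In MaP R245W/-, Neat1 took 0.09875% of the counts of tumor JM1564, a gap of 0.726 of the range against a critical value of 0.710 for 5 tumors. Malat1 in YZ7 (1.105%) and in JM1564 (0.7898%) lay within the range of the other tumors of the group or just under it.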

How the results depend on the processing

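The direction of Rn7sk was the same under every alternative run. Its groups did not overlap, so fits that left out a tumor were bound to keep this direction, which is a description only. Leaving out each tumor in turn gave log2 fold changes of 1.99 to 2.60, 0.98 to 1.25 and 0.85 to 1.48 for MaP R172H/- against MaP -/-, MaP R245W/- against MaP -/- and MaP R172H/- against MaP R245W/-. DESeq2 gave Rn7sk 1.14 for MaP R245W/- against MaP -/-. The numbers of genes called depended on the settings. In that order of comparisons the main fits called 1760, 0 and 2114 genes, DESeq2 3447, 427 and 3690, an absolute log2 fold change above 1 1051, 0 and 1392, and above 2 287, 0 and 526. Summing tumors of 1 mouse left 1126 in the first, 1 fit with all 18 tumors gave 2 in the second, and at least 10 counts in every tumor left 1398 in the third. Leaving out each tumor gave 1067 (without JM663-T2) to 1866, 0 to 3, and 1525 to 2362. With library totals in place of TMM the split of higher and lower calls was 558 and 1233 against 768 and 992 for MaP R172H/- against MaP -/-, and 870 and 1079 against 654 and 1460 for MaP R172H/- against MaP R245W/-. Of the 16 and 18 calls among listed genes in these comparisons, 10 and 6 held in every fit without a tumor. No paired analysis was possible because no mouse gave tumors to more than 1 group. Group sizes of 5 to 7, 4 mice behind the MaP -/- tumors, and the platform limit these comparisons.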
